A study of Arabidopsis thaliana with 9 samples.

Results

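The genes described here are 67 nuclear genes of Arabidopsis thaliana whose transcripts were more abundant in amp1-13 mutant seedlings than in wild-type seedlings but lay near the wild-type level in seedlings grown with hyperphyllin. They were chosen among 13264 nuclear genes, read by 13415 probe sets that name 1 gene, out of 22746 probe sets tested. A probe set was taken when its mean log2 signal in amp1-13 exceeded the wild-type DMSO mean by at least 0.8, its hyperphyllin mean lay within 0.4 of the wild-type DMSO mean, and each amp1-13 array lay above each wild-type DMSO array, a separation that 14.9% of all probe sets had. The 67 probe sets stand for 67 different genes. The rule also leaves out 7 genes by name, of which 1, UF3GT, met the limits. The members were thus selected on the array values themselves, through the differences of amp1-13 and hyperphyllin from the wild-type control, and those differences are given for the members as a description. Counts of members called in the fit across all probe sets are printed further on for completeness and support nothing about the members.

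RNA came from whole Col-0 seedlings, 10 days old, raised in liquid half-strength Murashige and Skoog medium with 1% sucrose at 26 °C under 16 h of light and 8 h of dark. The 3 groups were amp1-13 seedlings with 1% DMSO, wild-type seedlings with 30 µM hyperphyllin in 1% DMSO, and wild-type seedlings with 1% DMSO alone, with 3 biological replicates each. Every group thus carried the solvent, the mutant was represented by the single allele amp1-13, and no mutant seedlings with hyperphyllin were analysed here. Each replicate was hybridised to an Affymetrix ATH1 array, a chip with sets of short probes for Arabidopsis transcripts, and all levels below are log2 signals, on which a difference of 1 is a doubling.

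AMP1 encodes a membrane protein of the endoplasmic reticulum related to glutamate carboxypeptidases, and its loss gives an enlarged shoot meristem, faster leaf formation and altered cytokinin status. Hyperphyllin is a small molecule found for its effect on leaf formation rate, and it mimics shoot phenotypes of AMP1 loss. Setting the compound beside the mutant asks which transcripts follow only one of them, and the members are the mutant's side of that question. Whole seedlings mix many cell types, so more cells of a type and more RNA per cell cannot be told apart.

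The arrays had median signals from 6.44 to 6.52 over all probe sets. Pearson correlations over all probe sets within a group were 0.992 to 0.996 for amp1-13, 0.991 to 0.995 for hyperphyllin, and 0.983 to 0.995 for wild-type DMSO, where replicate 2 lay apart from the other 2 arrays. Probe sets naming 1 gene read 9 of 51 marker genes for organs and cell types. The leaf genes RCA and LHCB4.1 and the root gene PYK10 had signals above 12 on every array, and no marker of seed, flower, phloem, xylem or trichome was measured. Some markers moved with the mutant. RCA averaged 13.24 in amp1-13, 13.16 with hyperphyllin and 12.33 in wild-type DMSO (limma adjusted p for amp1-13 against control 0.00159). LHCB4.1 averaged 13.08, 13.11 and 12.48 in the same order (limma adjusted p = 0.00493). The stomatal gene FAMA averaged 6.54, 6.62 and 7.43 (limma adjusted p = 0.00831). The stomatal genes SPCH and MUTE were not called in amp1-13 (limma adjusted p = 0.87 and 0.0753). SPCH averaged 5.01, 5.13 and 5.05 in the same order, and MUTE 4.18, 3.96 and 3.84. The pollen gene VEX1, near the 25th percentile of mean signal (4.39), averaged 4.11 in amp1-13, 4.25 with hyperphyllin and 4.82 in wild-type DMSO (limma adjusted p = 0.00181 for amp1-13). The meristem gene CLV3 averaged 4.37 in amp1-13, 3.75 with hyperphyllin and 3.76 in wild-type DMSO, with amp1-13 replicate 2 alone at 5.04. CLV3 was not called in amp1-13 (limma adjusted p = 0.094), and its group means all lay below the 25th percentile. The part of these shifts in the members' values was not tested. AMP1 itself was not analysed here, and its transcript gives no check of the mutant label.

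The members are the part of the genes higher in amp1-13 that lay near the control level with hyperphyllin. Among nuclear probe sets, 455 met the amp1-13 limit without overlap. Of these, 68 (14.9%) had a hyperphyllin difference within 0.4, 375 (82.4%) lay above that limit and 12 (2.64%) lay below it. Over all nuclear probe sets, 72.5% had a hyperphyllin difference within 0.4. Both differences subtract the same wild-type DMSO arrays, which ties them together, so these shares are a description only. The members' amp1-13 differences ran from 0.80 to 1.91 with a median of 1.00, while the median over all 22746 probe sets was -0.03. In linear terms the members were 1.74-fold to 3.75-fold higher in amp1-13, 34 of them by at least 2-fold and 4 by at least 3-fold. Their hyperphyllin differences had a median of 0.18 and ran from -0.39 to 0.40.

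**Figure D1:**
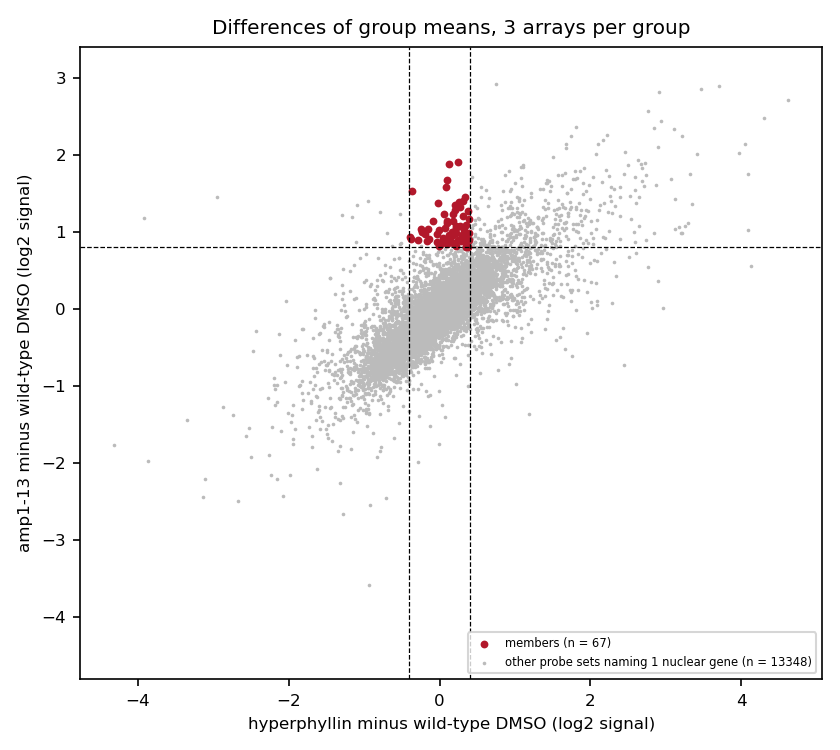
Each point is a probe set naming 1 nuclear gene, with the hyperphyllin minus wild-type DMSO difference on the x axis and the amp1-13 minus wild-type DMSO difference on the y axis, both in log2 signal (means of 3 arrays per group). Dashed lines mark the limits of 0.8 and 0.4, and the 67 members (red) fill the upper middle field, apart from the band in which most other probe sets have like differences in both.

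The hyperphyllin difference was above 0 in 50 of 67 members (74.6%) and below 0 in 17. Both differences share the 3 wild-type DMSO arrays and were used to choose the members, so nothing is read from this split. Hyperphyllin arrays overlapped the wild-type DMSO arrays in 56 members, lay all above them in 9 and all below them in 2, AT2G25510 and AT5G64190. Over all probe sets, 16.7% had the hyperphyllin arrays all above the control arrays and 22.8% had them all below. The 9 members with all hyperphyllin arrays above were AT2G40460, UGT74D1, AT1G73750, AT3G16660, AT3G19800, AT4G36530, scpl46, AT4G33150 and AT1G77890.

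The amp1-13 arrays lay all above the hyperphyllin arrays in 65 of 67 members, against 12.6% of all probe sets, and the rule favours this outcome. The exceptions were AT3G18250 and AT4G29030, in which amp1-13 replicate 1 fell inside the hyperphyllin range. The amp1-13 minus hyperphyllin difference ran from 0.42 to 1.90 with a median of 0.90. It was largest in AT2G32160, whose hyperphyllin level was also below the control level.

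**Figure D2:**
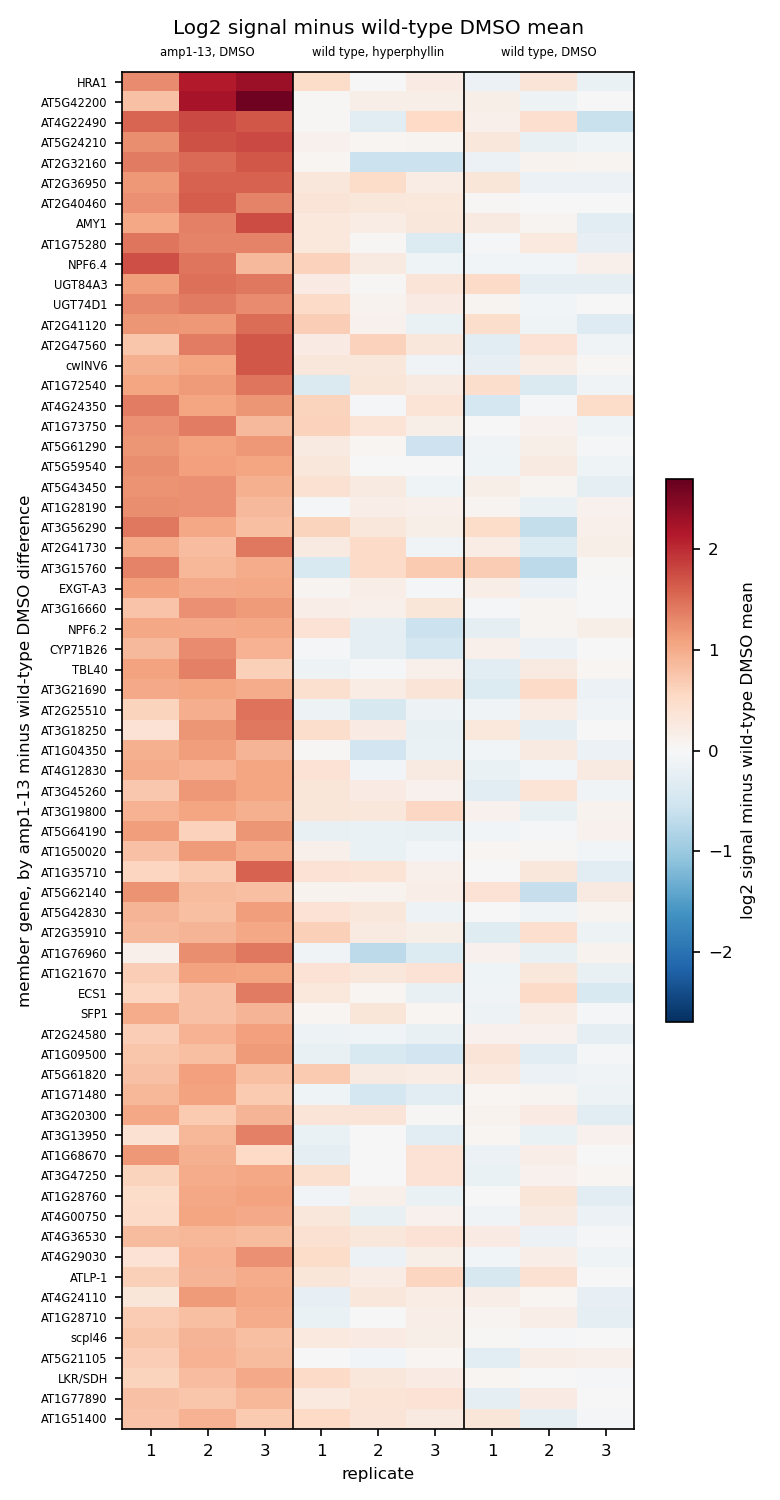
Log2 signal of each member gene (rows, ordered by the amp1-13 minus wild-type DMSO difference) on each of the 9 arrays (columns), minus the gene's wild-type DMSO mean. The amp1-13 columns are red throughout, by 0.80 to 1.91 on average, while the hyperphyllin columns scatter around the control columns, and amp1-13 replicate 1 is paler than the other 2 arrays in several rows.

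Functional names were held by 15 members in the gene tables used, and they cover sugar and starch enzymes, nitrate transport, glycosylation, the cell wall, amino acid breakdown and defence-related proteins. The largest difference of all members was in HRA1 (AT3G10040), HYPOXIA RESPONSE ATTENUATOR1, a trihelix transcription factor that restrains the low-oxygen response driven by RAP2.12. HRA1 had log2 signals of 8.46, 9.33 and 9.50 in amp1-13, 7.68, 7.19 and 7.41 with hyperphyllin, and 7.02, 7.53 and 7.01 in wild-type DMSO. The lowest amp1-13 array, replicate 1, was still 0.93 above the highest control array, and the hyperphyllin arrays overlapped the control arrays. The mean was 3.75-fold higher in amp1-13 than in the control (log2 difference 1.91).

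Enzymes and a carrier of carbohydrate metabolism formed a group of 3 members. AMY1 (AT4G25000), an alpha-amylase that acts on starch outside the plastid pathway of leaf starch breakdown, had 5.87, 6.18 and 6.58 in amp1-13, 5.10, 5.02 and 5.12 with hyperphyllin, and 5.05, 4.89 and 4.50 in wild-type DMSO. cwINV6 (AT5G11920), a cell wall enzyme of the invertase family that cleaves fructans, had 6.41, 6.50 and 7.12 in amp1-13, 5.76, 5.76 and 5.34 with hyperphyllin, and 5.21, 5.64 and 5.47 in wild-type DMSO. In both genes the amp1-13 arrays were separate from all other arrays, and the mean was 2.63-fold higher for AMY1 and 2.35-fold higher for cwINV6 than in the control. SFP1 (AT5G27350), a sugar transporter-like protein known from senescing leaves, was among the brightest members, with 11.50, 11.29 and 11.41 in amp1-13, 10.55, 10.81 and 10.54 with hyperphyllin, and 10.36, 10.69 and 10.43 in wild-type DMSO. Its 3 groups were tight, with SDs of 0.10 to 0.17, and the mutant mean was 1.88-fold above the control.

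A pair of members encode nitrate transporters of the NPF family. NPF6.4 (AT3G21670) had 7.97, 7.67 and 7.11 in amp1-13, 6.85, 6.46 and 6.11 with hyperphyllin, and 6.16, 6.16 and 6.36 in wild-type DMSO, a mutant mean 2.56-fold above the control. NPF6.2 (AT2G26690), known for nitrate storage in petioles, had 9.56, 9.53 and 9.56 in amp1-13, 8.90, 8.27 and 7.93 with hyperphyllin, and 8.28, 8.58 and 8.68 in wild-type DMSO. The mutant arrays of NPF6.2 agreed to an SD of 0.02, the smallest among the members, while its hyperphyllin arrays had an SD of 0.49 and lay on both sides of the controls. Their mean differences from the control with hyperphyllin had opposite signs, 0.25 for NPF6.4 and -0.15 for NPF6.2.

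Glycosyltransferases and a cytochrome P450 represented the modification of small molecules. UGT84A3 (AT4G15490), which makes glucose esters of hydroxycinnamic acids, had 8.03, 8.40 and 8.33 in amp1-13, 7.13, 6.94 and 7.25 with hyperphyllin, and 7.41, 6.64 and 6.66 in wild-type DMSO. UGT74D1 (AT2G31750), which glucosylates auxins, had 8.50, 8.61 and 8.49 in amp1-13, 7.72, 7.31 and 7.43 with hyperphyllin, and 7.29, 7.13 and 7.22 in wild-type DMSO. Both were about equally raised in mean, 2.55-fold for UGT84A3 and 2.50-fold for UGT74D1, but the control spread was larger in UGT84A3 (SD 0.44) than in UGT74D1 (SD 0.08). CYP71B26 (AT3G26290), a P450 of the large CYP71B subfamily, had 10.09, 10.51 and 10.17 in amp1-13, 9.20, 8.97 and 8.75 with hyperphyllin, and 9.35, 9.07 and 9.24 in wild-type DMSO. Its hyperphyllin mean was 0.25 below the control mean, and the mutant mean was 2.05-fold above it.

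Cell wall members were EXGT-A3 and TBL40. EXGT-A3 (AT2G01850, also XTH27), an enzyme that cuts and rejoins xyloglucan chains, had 11.49, 11.40 and 11.44 in amp1-13, 10.47, 10.56 and 10.36 with hyperphyllin, and 10.56, 10.22 and 10.38 in wild-type DMSO. The groups were narrow (SD 0.04, 0.10 and 0.17 in the same order) and the mutant mean was 2.08-fold higher than the control. TBL40 (AT2G31110), of the TRICHOME BIREFRINGENCE-LIKE family of wall polysaccharide acetyltransferases, had 8.04, 8.30 and 7.59 in amp1-13, 6.81, 6.92 and 7.09 with hyperphyllin, and 6.65, 7.20 and 7.00 in wild-type DMSO. A further probe set for TBL40 gave 8.45, 8.55 and 8.46 in amp1-13, 7.03, 7.37 and 7.45 with hyperphyllin, and 7.73, 7.93 and 7.82 in wild-type DMSO. On that probe set the mutant arrays were also all highest, but the amp1-13 difference was 0.66 and the hyperphyllin difference -0.54, so it met neither limit.

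Defence-related and protein-degrading members came lower in the ranking. ECS1 (AT1G31580), a cell wall protein linked to pathogen response, had 11.12, 11.33 and 11.94 in amp1-13, 10.82, 10.59 and 10.34 with hyperphyllin, and 10.44, 11.06 and 10.13 in wild-type DMSO. The control array of replicate 2 came within 0.06 of the lowest mutant array, so the separation of ECS1 is slight, and its difference was 0.68 to 1.18 when 1 array was left out. ATLP-1 (AT1G18250), a thaumatin-like protein related to PR-5, had 7.65, 7.92 and 8.01 in amp1-13, 7.32, 7.20 and 7.58 with hyperphyllin, and 6.57, 7.41 and 7.02 in wild-type DMSO, with the same control array highest. The serine carboxypeptidase-like gene scpl46 (AT2G33530) had 7.07, 7.24 and 7.15 in amp1-13, 6.60, 6.55 and 6.50 with hyperphyllin, and 6.36, 6.29 and 6.35 in wild-type DMSO. It had 3 levels that did not overlap, with hyperphyllin between the mutant and the control. LKR/SDH (AT4G33150), the bifunctional enzyme that opens lysine breakdown, showed the same order, with 9.60, 9.85 and 10.04 in amp1-13, 9.53, 9.32 and 9.24 with hyperphyllin, and 9.05, 9.01 and 8.97 in wild-type DMSO.

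**Figure D3:**
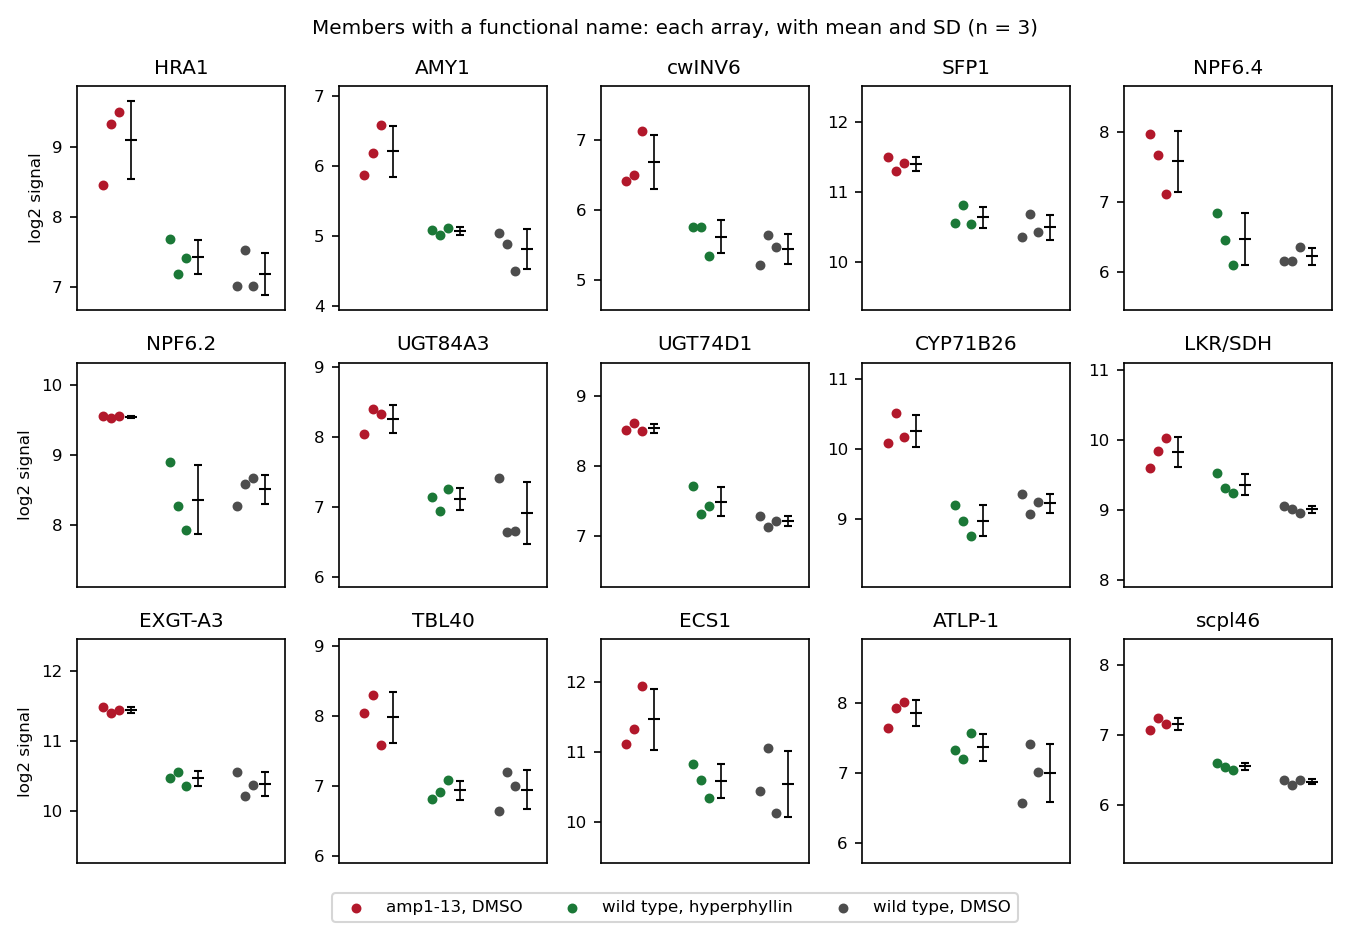
Log2 signal of the 15 members with a functional name on each array (points), with the group mean and SD beside them (n = 3 arrays). All panels span the same range of log2 units, and in each the amp1-13 points lie above the wild-type DMSO points, by 0.82 (LKR/SDH and scpl46) to 1.91 (HRA1) on average.

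The other 52 members carried no functional name in the tables used and are given by locus code. AT5G42200 had the second largest difference, with 8.35, 9.79 and 10.19 in amp1-13, 7.61, 7.72 and 7.73 with hyperphyllin, and 7.71, 7.42 and 7.56 in wild-type DMSO. Its mutant arrays had the largest SD of any member, 0.97, so the 3.68-fold mean is uncertain, and the log2 difference was 1.51 to 2.43 when 1 array was left out. AT4G22490 had 10.60, 10.82 and 10.72 in amp1-13, 9.06, 8.75 and 9.58 with hyperphyllin, and 9.17, 9.50 and 8.44 in wild-type DMSO. Here the spread lay in the control (SD 0.54), and the mutant mean was 3.20-fold higher. AT5G24210 had 9.31, 9.78 and 9.85 in amp1-13, 8.17, 8.11 and 8.13 with hyperphyllin, and 8.36, 7.86 and 7.95 in wild-type DMSO, a 3.01-fold higher mean with hyperphyllin values inside the control range.

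AT2G32160 had the widest gap between the lowest mutant array and the highest control array, 1.31. Its signals were 5.82, 5.94 and 6.09 in amp1-13, 4.48, 3.83 and 3.84 with hyperphyllin, and 4.25, 4.50 and 4.49 in wild-type DMSO. AT2G36950 had 9.27, 9.70 and 9.71 in amp1-13, 8.42, 8.60 and 8.30 with hyperphyllin, and 8.43, 7.94 and 7.95 in wild-type DMSO. AT2G40460 had 5.44, 5.84 and 5.54 in amp1-13, 4.56, 4.51 and 4.50 with hyperphyllin, and 4.24, 4.19 and 4.20 in wild-type DMSO. In AT2G40460 hyperphyllin gave a small, clean step above the control, 0.32 against 1.40 in the mutant, from control signals below the 25th percentile. AT1G75280 was the brightest of the 25 members with the largest differences, with 12.36, 12.27 and 12.25 in amp1-13, 11.19, 10.95 and 10.56 with hyperphyllin, and 10.87, 11.19 and 10.70 in wild-type DMSO.

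AT2G41120 had 7.23, 7.23 and 7.56 in amp1-13, 6.71, 6.16 and 5.88 with hyperphyllin, and 6.52, 5.93 and 5.70 in wild-type DMSO. AT2G47560 had 6.72, 7.34 and 7.63 in amp1-13, 6.17, 6.58 and 6.26 with hyperphyllin, and 5.66, 6.35 and 5.86 in wild-type DMSO. AT1G72540 had 5.96, 6.04 and 6.34 in amp1-13, 4.50, 5.21 and 5.12 with hyperphyllin, and 5.35, 4.50 and 4.80 in wild-type DMSO. All 3 had control SDs of 0.35 to 0.43, and their means were 2.34-fold to 2.44-fold higher in amp1-13 than in the control. AT4G24350 had 7.78, 7.47 and 7.59 in amp1-13, 7.00, 6.36 and 6.76 with hyperphyllin, and 5.93, 6.38 and 6.89 in wild-type DMSO. In AT1G73750 the signals were 7.73, 7.90 and 7.39 in amp1-13, 7.13, 6.87 and 6.68 with hyperphyllin, and 6.50, 6.63 and 6.39 in wild-type DMSO. The controls of AT4G24350 were spread (SD 0.48) while those of AT1G73750 were narrow (SD 0.12), and in AT1G73750 the hyperphyllin arrays lay between the other groups. AT5G61290 had 7.37, 7.26 and 7.34 in amp1-13, 6.42, 6.24 and 5.62 with hyperphyllin, and 6.08, 6.33 and 6.12 in wild-type DMSO. AT5G59540 had 11.05, 10.91 and 10.87 in amp1-13, 10.10, 9.82 and 9.79 with hyperphyllin, and 9.69, 10.04 and 9.68 in wild-type DMSO. AT5G43450 had 8.84, 8.86 and 8.59 in amp1-13, 8.03, 7.86 and 7.52 with hyperphyllin, and 7.79, 7.69 and 7.39 in wild-type DMSO. These 3 were 2.20-fold to 2.22-fold higher in amp1-13 than in the control, and the hyperphyllin arrays overlapped the control arrays in each. AT1G28190 had 8.32, 8.31 and 7.95 in amp1-13, 7.03, 7.26 and 7.22 with hyperphyllin, and 7.14, 6.89 and 7.20 in wild-type DMSO. AT3G56290 had 8.84, 8.45 and 8.23 in amp1-13, 8.02, 7.73 and 7.56 with hyperphyllin, and 7.92, 6.77 and 7.56 in wild-type DMSO. AT2G41730 had 7.65, 7.46 and 8.05 in amp1-13, 6.88, 7.14 and 6.54 with hyperphyllin, and 6.84, 6.27 and 6.80 in wild-type DMSO. The control of AT3G56290 held 1 low array, replicate 2, and its SD was 0.59, against 0.16 in AT1G28190 and 0.32 in AT2G41730. AT3G15760, the last of the 25, had 8.50, 8.06 and 8.16 in amp1-13, 6.75, 7.67 and 7.86 with hyperphyllin, and 7.84, 6.45 and 7.18 in wild-type DMSO. Its control SD, 0.70, was the largest of the members and its hyperphyllin SD, 0.59, likewise, so the difference of 1.08 is uncertain. It was 0.73 to 1.42 when 1 array was left out. The probe set of AT2G41730 carries a suffix that marks possible cross-hybridisation, the only member for which this holds.

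Members were spread over a wide range of levels. Mean signals in amp1-13 ran from 4.75 to 12.46 with a median of 8.24, with hyperphyllin from 3.59 to 11.21 with a median of 7.17, and in wild-type DMSO from 3.77 to 11.45 with a median of 7.08. The control mean was at or above the median probe set (6.51) in 41 members and below the 25th percentile in 5, AT2G40460, AT5G64190, AT1G35710, AT1G09500 and AT3G13950, so the folds of these 5 are uncertain. No amp1-13 mean lay below that percentile. The brightest member was AT2G25510, with 12.06, 12.42 and 12.90 in amp1-13, 11.31, 11.02 and 11.31 with hyperphyllin, and 11.35, 11.64 and 11.35 in wild-type DMSO. Its hyperphyllin arrays were all below the controls, by 0.23 on average, and its mutant arrays all above.

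The array of amp1-13 replicate 1 often lay lowest in its group. It was the lowest of the 3 mutant arrays in 39 of 67 members (58.2%), against 38.2% of all probe sets, and it lay more than 0.5 below both others in 9 members. These 9 were HRA1, AT5G42200, AT2G47560, AT3G18250, AT1G76960, AT1G28760, AT4G00750, AT4G29030 and AT4G24110. The widest of these steps was in AT5G42200, whose arrays are given above. AT1G76960 had 7.53, 8.65 and 8.82 in amp1-13, 7.31, 6.70 and 7.02 with hyperphyllin, and 7.51, 7.19 and 7.48 in wild-type DMSO, so that mutant replicate 1 was 0.02 above the highest control. In the hyperphyllin group replicate 1 was the highest array in 41 members (61.2%), against 31.7% of all probe sets. In wild-type DMSO the lowest value fell on replicates 1, 2 and 3 in 20, 24 and 23 members. What set these arrays apart was not tested. Without amp1-13 replicate 1 the rule took 79 genes, 66 of them among the 67, and without wild-type DMSO replicate 2 it took 61 genes, 49 of them among the 67.

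The gap between the lowest mutant array and the highest control array exceeded 0.5 in 41 members and was under 0.1 in 2, AT1G76960 and ECS1. Among probe sets naming 1 nuclear gene, outside the genes left out by name, all that met both difference limits also met the condition of no overlap. Just inside the amp1-13 limit were AT1G51400 (0.80), AT1G77890 (0.81) and LKR/SDH (0.82), and just outside it AT1G69450 and AT1G75460 (both 0.78) and AT1G19740 (0.78). At the upper hyperphyllin limit, AT3G19800 (0.40), AT1G73750 (0.39) and AT5G61820 (0.38) were inside, while AT1G62500 (0.43), AT2G29290 (0.43) and AT4G19530 (0.43) were outside. At the lower limit, AT1G76960 (-0.39), AT1G09500 (-0.38) and AT2G32160 (-0.37) were inside, and AT2G41380 (-0.51), AT3G10320 (-0.52) and AT2G23840 (-0.53) were outside. The values pass continuously over the amp1-13 limit and the upper hyperphyllin limit, while the lower one has a wider step.

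For AT1G77890 a further probe set had signals of 3.44 to 3.88 over the 9 arrays, with an amp1-13 difference of 0.08, and did not repeat the difference of the chosen one (0.81). That probe set lay below the 25th percentile throughout. TBL40 and AT1G77890 were the members with more than 1 probe set naming the gene alone.

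In the limma fit across 22746 probe sets at an adjusted p under 0.05, 65 of 67 members were called higher in amp1-13 than in wild-type DMSO, where 10.1% of all probe sets were called higher. The 2 without a call were AT3G15760 and AT1G76960, which had the wide spreads given above. With hyperphyllin against wild-type DMSO 3 members were called higher, AT2G40460, AT3G19800 and AT4G36530, and 0 lower, where 28.9% of all probe sets were called in either direction. Between amp1-13 and hyperphyllin 48 members were called, all higher in the mutant, where 3.35% of all probe sets were called higher, 2.98% lower and 6.33% in either direction. These counts follow from how the members were chosen and are not evidence about them. The hyperphyllin count became 16 when arrays were weighted and was 0 to 9 when 1 array was left out, so a missing call is no sign of an equal level.

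The relatives of the members did not move as a block. The 6 gene lists with a member, matched on gene names, held 236 further measured genes, which were tested by limma. Genes that the rule leaves out by name were not counted among them. Of 49 other UDP-glycosyltransferase genes, 7 were called higher and 4 lower in the mutant and 38 were not called, a share close to the 22.5% of all probe sets called in either direction. UGT73B1 (AT4G34138), of a group acting on flavonoids and foreign compounds, averaged 6.75 ± 0.24 in amp1-13 and 5.01 ± 0.22 in wild-type DMSO (SD, n = 3 each), a rise of 3.34-fold (limma adjusted p = 0.000384). It also rose 2.97-fold with hyperphyllin (limma adjusted p = 0.000344). UGT87A2 (AT2G30140), known for a role in flowering time, averaged 9.53 ± 0.33 in amp1-13 and 8.18 ± 0.26 in wild-type DMSO (SD, n = 3 each), a rise of 2.53-fold (limma adjusted p = 0.00149). Its hyperphyllin difference was 0.47 ± 0.18 (SE) and was not called (limma adjusted p = 0.074). The genes on either side of UGT84A3 are UGT84A1 and UGT84A4. UGT84A1 (AT4G15480) averaged 5.00 in amp1-13 and 4.89 in wild-type DMSO and was not called (limma adjusted p = 0.63). UGT84A4 (AT4G15500) averaged 6.17 in amp1-13 and 6.80 in wild-type DMSO, a level 1.54-fold lower (limma adjusted p = 0.00305). Its hyperphyllin difference was -0.34 (limma adjusted p = 0.0299), a call lost in 6 of 16 alternative settings. Between amp1-13 and hyperphyllin UGT84A4 was not called (limma adjusted p = 0.136).

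The transporter and channel list had 35 other genes, with 2 called higher and 4 called lower in the mutant, a share below the 22.5% of all probe sets. AT1G59740, like NPF6.4 and NPF6.2 an NPF gene, averaged 6.58 ± 0.18 in amp1-13 and 5.21 ± 0.29 in wild-type DMSO (SD, n = 3 each), a rise of 2.58-fold (limma adjusted p = 0.000817). It rose 3.07-fold with hyperphyllin (limma adjusted p = 0.000255), and of the 8 NPF genes outside the members it was the only one called in amp1-13. The sugar exporter gene SWEET4 (AT3G28007) fell by 1.07 on the log2 scale in amp1-13 (limma adjusted p = 0.0188), a call lost without wild-type DMSO replicate 1 or 3 or amp1-13 replicate 2 or 3 (highest adjusted p 0.0691). With hyperphyllin SWEET4 fell by 1.29 on the log2 scale (limma adjusted p = 0.00656).

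Cell wall genes split evenly, with 8 of 56 other genes higher in amp1-13, 9 lower and 39 not called. The share called in either direction was above the 22.5% of all probe sets. PME61 (AT3G59010), a pectin methylesterase, fell to a level 3.37-fold lower in amp1-13 (limma adjusted p = 0.000309) and differed by -0.01 ± 0.15 (SE) with hyperphyllin. The difference between mutant and compound itself was called for PME61 (limma adjusted p = 0.000457). ATPMEPCRB (AT4G02330), also a pectin methylesterase, rose 3.35-fold in amp1-13 (limma adjusted p = 0.00394) and 17.0-fold with hyperphyllin (limma adjusted p = 7.95e-05). It was called lower in amp1-13 than with hyperphyllin, by a log2 difference of -2.34 (limma adjusted p = 0.00246). Of 9 other xyloglucan endotransglucosylase/hydrolase genes, 2 were higher and 2 lower, above the 22.5% of all probe sets but from few genes. XTH16 (AT3G23730) rose 1.74-fold and XTH20 (AT5G48070) fell to a level 1.68-fold lower (limma adjusted p = 0.00217 and 0.00647). XTH16 also rose with hyperphyllin, 1.60-fold (limma adjusted p = 0.00291). XTH18 (AT4G30280) rose 1.81-fold in amp1-13 (limma adjusted p = 0.0352), a call lost in 5 of 16 alternative settings. With hyperphyllin XTH18 rose 3.90-fold (limma adjusted p = 0.000694). Of 22 other TBL genes, 2 were higher and 3 lower, a share close to the 22.5% of all probe sets. TBL39 (AT2G42570) fell to a level 1.70-fold lower (limma adjusted p = 0.00554).

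Protease and inhibitor genes were called higher in 8 and lower in 1 of 62 other genes, so 9 of 62 were called, below the share over all probe sets. Of 28 other serine carboxypeptidase-like genes, 3 were higher and 0 lower, a share called higher near the 10.1% of all probe sets. One of the 3, scpl42 (AT5G42240), rose 1.37-fold in amp1-13 (limma adjusted p = 0.0387), a call lost in 9 of 16 alternative settings. With hyperphyllin scpl42 rose 1.49-fold (limma adjusted p = 0.012). SCPL34 (AT5G23210) averaged 8.39 ± 0.06 in amp1-13, 7.80 with hyperphyllin and 7.66 ± 0.22 in wild-type DMSO (SD, n = 3 each), a rise of 1.66-fold in the mutant (limma adjusted p = 0.00262). It was also called higher in amp1-13 than with hyperphyllin (limma adjusted p = 0.0143), a call lost without hyperphyllin replicate 2 or amp1-13 replicate 2 or 3 (highest adjusted p 0.0769). The gene scpl31 (AT1G11080) averaged 4.75 ± 0.13 in amp1-13, 3.93 with hyperphyllin and 4.13 ± 0.06 in wild-type DMSO (SD, n = 3 each), a rise of 1.54-fold over the control (limma adjusted p = 0.00212). The difference of scpl31 between mutant and compound was called too (limma adjusted p = 0.00137), though its control and hyperphyllin levels lay below the 25th percentile. The subtilase gene SBT4.12 (AT5G59090) rose 3.50-fold in amp1-13 (limma adjusted p = 0.00216) and the cysteine protease gene CP1 (AT4G36880) fell to a level 2.54-fold lower (limma adjusted p = 0.00126), and both were called in the same direction with hyperphyllin.

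The cytochrome P450 list held 27 genes outside the members, of which 3 were called higher and 3 lower in amp1-13. This share was close to the 22.5% of all probe sets called in either direction. Being matched on names, it also took in cyclophilin genes, SQN, CYP59, AT3G44600 and AT4G33060, which were not called. The 27 are thus not all P450 genes. The largest changes were in CYP71B24 (AT3G26230), which rose by 0.67 on the log2 scale (limma adjusted p = 0.0453), and CYP71B37 (AT3G26330), which fell to a level 1.46-fold lower (limma adjusted p = 0.0301), both of the subfamily of CYP71B26 and from the same stretch of locus codes. The call of CYP71B24 was lost in 9 of 16 alternative settings (highest adjusted p 0.145) and that of CYP71B37 in 4 (highest adjusted p 0.115). The starch and sugar list held only 7 other genes, among them chromatin remodelling genes whose names mention sucrose. Being matched on names, not all 7 need be starch or sugar enzymes. Of the 7, 2 were called higher and 1 lower in amp1-13, above the 22.5% of all probe sets but from few genes. The lower one was QQS (AT3G30720), known for an effect on leaf starch, which averaged 3.89 in amp1-13, 6.53 with hyperphyllin and 7.47 in wild-type DMSO (limma adjusted p = 0.000212 for amp1-13 against control). Its mutant mean was below the 25th percentile. SBE2.2, a starch branching enzyme, rose 1.41-fold (limma adjusted p = 0.0471), a call lost in 11 of 16 alternative settings (highest adjusted p 0.166). SDP1 (AT5G04040), the other gene called higher, rose 1.36-fold in amp1-13 (limma adjusted p = 0.0387), a call lost in 6 of 16 alternative settings. With hyperphyllin SDP1 rose 1.42-fold (limma adjusted p = 0.0186).

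**Figure D4:**
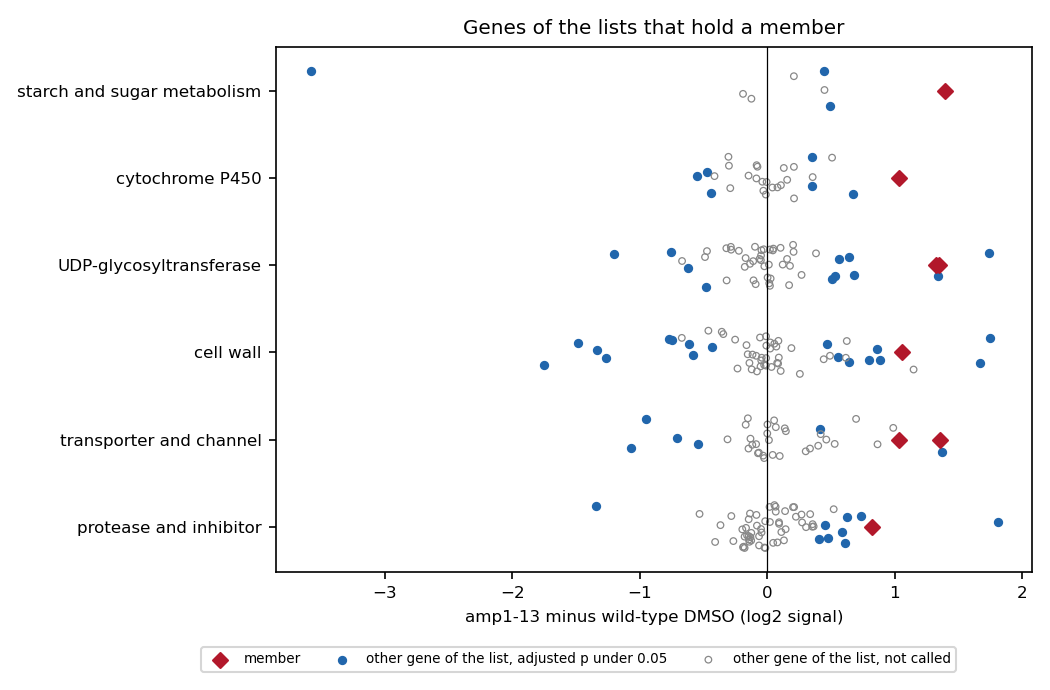
Amp1-13 minus wild-type DMSO difference (x axis, log2 signal) of the members (red diamonds) and of the other measured genes of the 6 gene lists that hold a member, filled where limma called them at an adjusted p under 0.05. In each list called genes lie on both sides of 0, and most genes are not called.

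Genes next to the members on the chromosomes were measured in 63 cases beside 44 members. Of these neighbours 7 were called higher in amp1-13 and 9 lower, together 25.4%, near the 22.5% of all probe sets. AT3G16670, beside AT3G16660, averaged 8.62 in amp1-13 and 7.29 in wild-type DMSO, a rise of 2.53-fold (limma adjusted p = 0.00845). AT5G21100, beside AT5G21105, rose 1.63-fold (limma adjusted p = 0.00335), and AT1G21680, beside AT1G21670, rose 1.74-fold (limma adjusted p = 0.00394). With hyperphyllin AT1G21680 was called higher too, by 0.48 on the log2 scale (limma adjusted p = 0.0249). AT3G16670 and AT5G21100 were not, with differences of 0.64 and 0.20 (limma adjusted p = 0.104 and 0.22). Between amp1-13 and hyperphyllin AT5G21100 was called (limma adjusted p = 0.031). AT3G16670 and AT1G21680 were not (limma adjusted p = 0.186 and 0.226). AT2G32150, beside AT2G32160, rose 2.73-fold in amp1-13 (limma adjusted p = 0.00911) and by 2.64 on the log2 scale with hyperphyllin (limma adjusted p = 0.000413), where the member's mean lay below the control mean. Opposite to their member neighbours, AT3G21680 fell to a level 2.94-fold lower (limma adjusted p = 0.00672) between the members NPF6.4 and AT3G21690, and the sugar exporter gene SWEET14 fell to a level 1.45-fold lower beside AMY1 (limma adjusted p = 0.00813). Both also fell with hyperphyllin, AT3G21680 by 1.59 and SWEET14 by 1.09 on the log2 scale (limma adjusted p = 0.00424 and 0.000258).

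No members were direct neighbours, and the closest pairs, NPF6.4 with AT3G21690 and AT1G28710 with AT1G28760, had 1 protein-coding gene between them. The members lay on chromosomes 1 to 5 in numbers of 18, 14, 13, 10 and 12. Their shares were 26.9%, 20.9%, 19.4%, 14.9% and 17.9%, beside 25.9%, 16.5%, 20.5%, 14.6% and 22.5% of all nuclear probe sets.

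Of the 7 genes the rule leaves out by name, the anthocyanin glycosyltransferase gene UF3GT averaged 6.54 in amp1-13, 5.47 with hyperphyllin and 5.72 in wild-type DMSO, and AT4G14090 missed the amp1-13 limit at 0.74. DFR, GTR1, PRK, SBPASE and PSBY lay above the hyperphyllin limit, with differences of 0.755 to 1.93.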

How the data were processed

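The authors deposited log2 signals per probe set, computed by RMA, per the submitters' processing notes. Further software, versions and probe definitions: not given in the sources used here. Values ran from 2.77 to 14.3, none were missing, and 64 control probe sets were left out. The 3 arrays per group, labelled biological replicates, limit the precision. Gene names came from the platform annotation and the TAIR10.1 gene table, which was used for names and gene order only.

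The members and lists were chosen with earlier results of these data known. The limma fit (limma 3.58.1, R 4.3.3) had 1 mean per group over 9 arrays and two-sided tests, adjusted by Benjamini-Hochberg across all 22746 probe sets, and called genes under 0.05. The fit and the rule were tested on simulated data. Of 30 gene lists built on names, 6 held a member, and the brightest probe set stood for a gene. The NPF, xyloglucan, TBL and serine carboxypeptidase-like families were set after the members were seen.

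By the naming rule, per-array values were given for the 25 largest differences, members with extreme mutant spread or another probe set, and up to 2 called genes per list were named. Genes at the limits are given by their differences only, a departure from that rule. UGT84A1, UGT84A4, XTH16, XTH18, XTH20, TBL39, SCPL34, scpl31, scpl42, SDP1, the cyclophilin genes and the neighbouring genes were chosen after their values were seen. Alternatives were rescaling, filters, priors, array weights, a replicate block and leaving out each array.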

Additional observations from a re-analysis of the deposited data

How the results depend on the processing

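The rule took 67 genes as described and 47 to 87 under its alternatives, with 57 to 79 when 1 array was left out (49 to 66 of the 67 among them) and 67 with group medians (53 of them the same). Every member kept a positive amp1-13 difference without any 1 array and under both rescalings, the lowest being 0.64. Members called with hyperphyllin (3) numbered 16 with array weights, 0 after centring and 0 to 9 without 1 array. Members called between amp1-13 and hyperphyllin (48) numbered 29 to 58 without 1 array. Of the 236 other genes in the lists, those called in amp1-13 against control numbered 30 higher and 22 lower. Array weights gave 52 higher and 41 lower, fitting only the 2 groups gave 19 higher, and leaving out 1 array gave 11 to 41 higher and 17 to 25 lower. With hyperphyllin against control, 44 were called higher (24 to 52 without 1 array) and 33 lower (51 with array weights, 19 to 34 without 1 array). Between amp1-13 and hyperphyllin, 14 were called higher (27 with array weights, 6 to 21 without 1 array) and 11 lower (27 with array weights, 3 to 17 without 1 array). The cause of these moves was not tested. Same-numbered arrays had deviations correlated at -0.20 to 0.23, with 3 of 9 pairs above 0.1, and differently numbered arrays at -0.25 to 0.36. Deviations from a mean of 3 arrays depend on each other, so these values cannot decide whether the numbers pair the samples. With the replicate block, 63 members were called in amp1-13 against control (65 without it), 3 with hyperphyllin and 45 between amp1-13 and hyperphyllin.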
